A study of Mus musculus with 3 samples.

Results

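The 10 genes described here are acute-phase and antimicrobial effector genes of the mouse, namely Saa3, Hp, Ptx3, Lcn2, Camp, Lyz1, Lyz2, Slpi, Wfdc17 and Chil3. They were taken by symbol from a given list, and all 10 were found among the 55536 annotated genes of the gene tables, of which 22028 are protein-coding. RNA of the cytosolic fraction was sequenced after removal of ribosomal RNA, in macrophages derived in culture from bone marrow of C57BL/6J mice, an inbred strain. All cells had first received Lipid A, the membrane anchor of lipopolysaccharide and a ligand of TLR4, at 100 ng/ml over 12 h. After a washout of 12 h they were given the same dose, 100 ng/ml, a second time and harvested 20 min later. There is 1 group of 3 libraries, numbered as biological replicates 1, 2 and 3, and the labels trace all of them to a single donor identifier and record neither sex nor age. The spread given is therefore that between these 3 libraries, part of which may be technical. No untreated, once-stimulated or nuclear sample was analysed here, so every value is a level in restimulated cells and not a response.

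The acute-phase response is the rapid change in the set of proteins secreted during infection or injury. The liver makes most of these proteins for the blood, and macrophages and neutrophils make some of them at the site of infection, beside effectors that act on microbes directly. Serum amyloid A proteins are small lipid-binding acute-phase proteins, and Saa3 is the mouse member best known from cells outside the liver, macrophages among them. Haptoglobin (Hp) binds free haemoglobin, and the long pentraxin Ptx3 is a soluble pattern recognition molecule. Lcn2 binds siderophores, the small molecules with which bacteria take up iron, Camp is the precursor of the cathelicidin antimicrobial peptide, and the lysozymes Lyz1 and Lyz2 cut the bacterial cell wall. Slpi is an inhibitor of neutrophil serine proteases with whey acidic protein domains, Wfdc17 is a small protein with such a domain made by activated macrophages, and Chil3 (also called Ym1) is a chitinase-like lectin. Camp, Hp, Lcn2 and Chil3 are also well known from maturing neutrophils.

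Expected counts on annotated genes, the estimated reads per gene, totalled 32055937, 43616634 and 47864978 in replicates 1, 2 and 3. Levels are given as TPM, the abundance per transcript length scaled to the same sum in every library. The near-identical 7SL RNA genes Rn7s1 and Rn7s2 held 59.3%, 62.9% and 55.5% of the TPM in replicates 1, 2 and 3. Protein-coding genes held 32.7%, 27.4% and 27.8%, so the TPM of all of them is low in absolute terms. Over 9353 protein-coding genes with a mean of 1 TPM or more that could be compared, the median log2 ratio of TPM was 0.16 between replicates 1 and 2, and it was 0.11 between replicates 1 and 3 over 9354 genes. Of the macrophage markers 10 of 10 reached 1 TPM throughout, with a median of 124 ± 9.21 TPM (SD, n = 3), and Adgre1, Cd68 and Aif1 were highest.

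The members covered the whole range of expression, with 3 abundant genes, 1 of moderate level and 6 near or below 1 TPM. In every library 5 of the 10 reached 1 TPM (Saa3, Lyz2, Wfdc17, Lcn2 and Chil3), against 41.3% of all protein-coding genes. The members' median was 1.78 ± 0.485 TPM, against a median of 0.15 ± 0.02 TPM over all protein-coding genes (SD, n = 3 each). When TPM was rescaled over protein-coding genes alone, which removes the 7SL share, 8 of 10 members reached 1 TPM, with Lyz1, Hp and Slpi added. Rescaling raised every gene: 11778 genes of all types then had a mean of 1 TPM or more, against 9983 before. Of the members, 8 then had such a mean, against 6 before. The share of protein-coding genes at 1 TPM in every library was not computed on this scale. The summed TPM of the 10 genes was 10024, 5910.4 and 9468.7 in replicates 1, 2 and 3, of which Saa3 and Lyz2 held 95.2%, 93.7% and 96.4%. The members held 2.88 ± 0.645% of the TPM of protein-coding genes (SD, n = 3), and 0.992 ± 0.0943% of their expected counts, where short transcripts such as Saa3 weigh less.

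**Figure D1:**
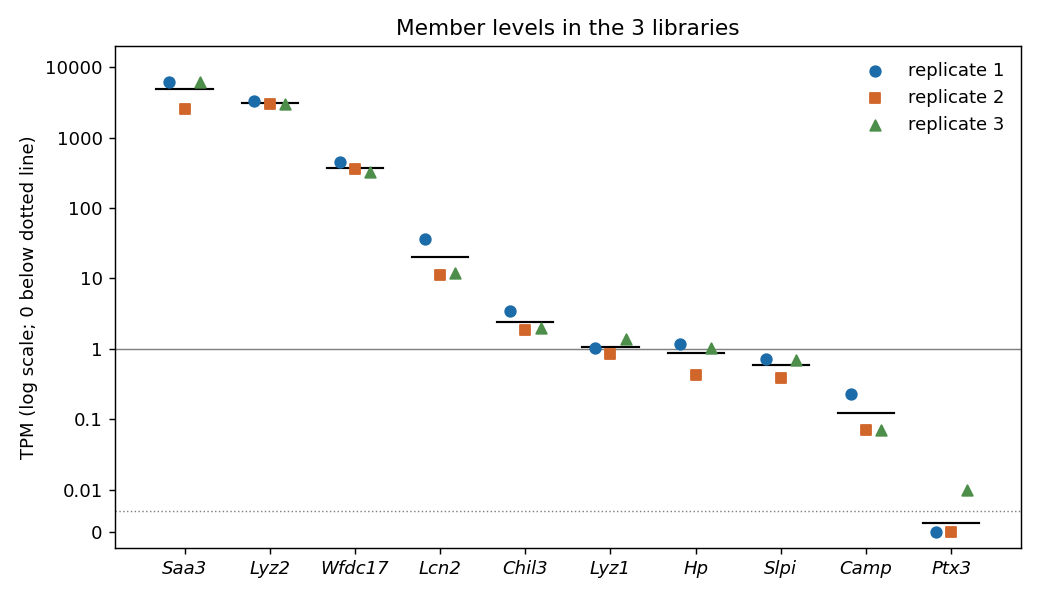
Level of each member in TPM (log scale) in replicates 1 (circles), 2 (squares) and 3 (triangles), with the mean of the 3 libraries as a short bar and 1 TPM as a grey line. Points below the dotted line are 0. Saa3, Lyz2 and Wfdc17 lie above 300 TPM, and Saa3 and Lcn2 show the widest separation between libraries among members above 1 TPM.

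Saa3 (ENSMUSG00000040026.8, chr7:46711998-46715700, minus strand) was the most abundant member on average and ranked 3 by mean TPM among protein-coding genes. It had 6214.89 TPM in replicate 1, 2534.17 TPM in replicate 2 and 6091.17 TPM in replicate 3, from 100197, 67232 and 168071 expected counts. Replicates 1 and 3 were close to each other and replicate 2 lay far below both, giving a mean of 4947 ± 2090.3 TPM (SD, n = 3). The other serum amyloid A genes of the list were at or near 0. Saa1 had 0.16, 0.10 and 0.28 TPM, Saa2 had 0, 0.04 and 0.04 TPM, and Saa4 had 0 in all 3 libraries. The coding sequences of Saa3 and Saa1 were 75.9% identical, and 5.71% of the 31-base stretches of the leading Saa3 transcript also occur in transcripts of Saa1 or Saa2. That transcript, of 3 annotated, held at least 99.98% of the gene's abundance in every library.

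The stretch of 226 bases directly upstream of the first annotated Saa3 exon base is printed because Saa3 was the highest member and its promoter is well studied as a target of C/EBP factors, transcription factors of the acute-phase response (chr7:46715701-46715926, minus strand, GRCm38.p6, RefSeq). Capitals mark the only match to the C/EBP core TTNNGCAA, searched on both strands, which starts 99 bases before the RefSeq start.
Saa3 promoter: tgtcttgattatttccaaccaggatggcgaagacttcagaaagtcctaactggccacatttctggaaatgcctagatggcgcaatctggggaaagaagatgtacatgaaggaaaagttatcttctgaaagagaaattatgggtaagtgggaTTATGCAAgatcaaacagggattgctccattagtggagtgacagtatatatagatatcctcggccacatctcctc
The search covered the 250 bases before the RefSeq start. Of the 9 members with such a window, 5 held this core (Saa3, Lcn2, Lyz1, Ptx3 and Slpi), against 9.56% of all 32851 windows searched in the same way. The NF-kB core, GGG and CC with any 5 bases between them on either strand, was found in 2 of 9 (Lcn2 and Chil3), against 45.8% of all windows. The ETS core AGGAAGT, on both strands, the motif of the macrophage factor PU.1 and its relatives, was found in 3 of 9 (Lyz1, Lyz2 and Chil3), against 7.69% of all windows. Not every base searched is upstream of the gene. The Lcn2 window lies inside the annotated gene, with 197 of the 250 bases in annotated exons. Exons also held 161 of these bases for Camp, 65 for Wfdc17, 49 for Lyz2 and 24 for Saa3. The members with the C/EBP core include the most abundant one (Saa3) and the one nearest to 0 (Ptx3), and a match describes letters and not binding.

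Hp (ENSMUSG00000031722.10, chr8:109575128-109579172, minus strand) had 1.17, 0.43 and 1.04 TPM in replicates 1, 2 and 3, from 65, 39 and 97 expected counts. Its 95% exact Poisson intervals, which cover counting error only, were 0.901 to 1.49, 0.308 to 0.593 and 0.843 to 1.27 TPM. The interval of replicate 2 did not overlap those of replicates 1 and 3, so the lower level there was beyond counting error. Ptx3 (ENSMUSG00000027832.5, chr3:66219910-66225805, plus strand) had no count in replicates 1 and 2, which allows up to 0.0458 and 0.0284 TPM at a limit of 3 counts, and 2 counts (0.01 TPM) in replicate 3. Of 20 other acute-phase genes, 2 reached 1 TPM in every library and 11 had no count in any library. These 2 were the complement component C3, with 121.16, 69.5 and 69.61 TPM, and the copper-carrying ferroxidase ceruloplasmin (Cp), with 35.14, 15.71 and 41.11 TPM. The next was Lbp, which delivers lipopolysaccharide to CD14, with 0.58, 0.61 and 0.78 TPM. The liver genes fibrinogen (Fga, Fgb and Fgg) and Hamp were among those at 0, and the list's median was 0. The 6 other pentraxin genes all stayed below 1 TPM, with Nptxr highest at 0.13, 0.04 and 0.06 TPM and Crp at 0, 0 and 0.01 TPM.

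Lcn2 (ENSMUSG00000026822.14, chr2:32384633-32388252, minus strand) had 36.59 TPM in replicate 1, 11.26 TPM in replicate 2 and 12.07 TPM in replicate 3, from 1250, 623 and 697 expected counts. Replicate 1 stood alone above the other libraries, and the mean was 20.0 ± 14.4 TPM (SD, n = 3), or 11.7 TPM without replicate 1. Its leading transcript, of 6 annotated, held at least 98.2% of its abundance. None of the 15 other lipocalin genes reached 1 TPM. Camp (ENSMUSG00000038357.10, chr9:109847379-109849617, minus strand) had 0.23, 0.07 and 0.07 TPM from 6, 3 and 3 expected counts, with intervals of 0.0839 to 0.497, 0.0145 to 0.205 and 0.0139 to 0.197 TPM. These intervals overlap, and with so few counts no order of the libraries is read for Camp.

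Lyz2 (ENSMUSG00000069516.8, chr10:117277331-117282321, minus strand), the lysozyme of macrophages, had 3322.81, 3001.74 and 3036.67 TPM in replicates 1, 2 and 3, from 180113, 262902 and 276009 expected counts. It was the steadiest member, at 3120.4 ± 176 TPM (SD, n = 3), and ranked 9 among protein-coding genes. Lyz1 (ENSMUSG00000069515.6, chr10:117287797-117292868, minus strand), the lysozyme typical of intestinal Paneth cells, had 1.03, 0.84 and 1.36 TPM from 53.0, 70.0 and 118 expected counts. Within a library Lyz2 was 3226, 3573.5 and 2233 times as high as Lyz1, a mean log2 ratio of 11.53 ± 0.36 (SD, n = 3). Lyz1 took 0.0294%, 0.0266% and 0.0427% of the expected counts of the pair. None of the 8 other genes of the lysozyme list reached 1 TPM, and Lyzl4 was highest at 0.24, 0.38 and 0.17 TPM.

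The first 150 bases of the coding sequence are printed for both genes because their likeness decides how well reads can be told apart (GENCODE M21, mm10, both genes on the minus strand of chromosome 10). Capitals mark the 14 positions at which they differ.
Lyz2 coding start: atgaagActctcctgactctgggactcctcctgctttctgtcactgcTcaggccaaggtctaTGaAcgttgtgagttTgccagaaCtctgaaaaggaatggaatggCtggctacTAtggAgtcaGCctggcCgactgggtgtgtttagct
Lyz1 coding start: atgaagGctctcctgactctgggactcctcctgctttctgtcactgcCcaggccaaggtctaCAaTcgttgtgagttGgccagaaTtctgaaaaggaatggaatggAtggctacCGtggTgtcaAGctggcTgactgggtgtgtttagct
Over the whole coding sequence of 444 bases the genes differ at 22 positions, an identity of 95.1%, and the longest identical run is 118 bases. Of all 31-base stretches, 32.8% of those of Lyz2 and 34.2% of those of Lyz1 occur in the other transcript as well. The low Lyz1 level is therefore uncertain, since a small part of the Lyz2 reads assigned to the wrong copy would equal it. A second quantification of the same reads gave Lyz1 0.0250%, 0.0169% and 0.0321% of the pair's estimated counts.

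The 2 lysozyme genes lie side by side, 5475 bases apart, and the 201 bases from 250 to 50 bases before the RefSeq start of each are printed because neighbouring copies with such different levels can be compared letter by letter (GRCm38.p6, RefSeq, minus strand). The Lyz2 stretch, chr10:117282322-117282522, borders the first annotated Lyz2 exon base, whereas the Lyz1 stretch, chr10:117292918-117293118, leaves out the 49 bases next to the annotated Lyz1 gene. Capitals mark bases that differ or face a gap in a global alignment of both.
Lyz2 promoter: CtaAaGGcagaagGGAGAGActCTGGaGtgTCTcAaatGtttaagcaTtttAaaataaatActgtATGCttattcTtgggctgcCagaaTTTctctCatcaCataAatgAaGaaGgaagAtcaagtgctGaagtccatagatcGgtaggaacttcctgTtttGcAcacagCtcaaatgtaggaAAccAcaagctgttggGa
Lyz1 promoter: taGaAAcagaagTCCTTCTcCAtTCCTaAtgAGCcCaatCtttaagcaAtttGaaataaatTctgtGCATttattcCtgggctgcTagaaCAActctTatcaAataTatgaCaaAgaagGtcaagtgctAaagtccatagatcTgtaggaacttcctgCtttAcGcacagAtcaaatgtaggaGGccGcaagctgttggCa
Of 203 aligned columns 151 were identical, or 74.4%. This is lower than the 95.1% of the coding sequences.

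Wfdc17 (ENSMUSG00000069792.5, chr11:83703991-83706268, plus strand) had 442.69, 359.6 and 323.58 TPM in replicates 1, 2 and 3, a mean of 375 ± 61.1 TPM (SD, n = 3). Its libraries lay close together, and it ranked 73 among protein-coding genes. Slpi (ENSMUSG00000017002.14, chr2:164354070-164389095, minus strand), from the same family, had 0.71, 0.38 and 0.70 TPM from 23, 20 and 38 expected counts. The Poisson intervals of Slpi, 0.453 to 1.07, 0.234 to 0.591 and 0.495 to 0.961 TPM, overlap, and no direct comparison of these counts was made. None of the 17 other whey acidic protein genes reached 1 TPM, and 15 of the 19 genes of the family had no count at all. Wfdc18, whose coding sequence was 79.4% identical to that of Wfdc17, was highest of these others at 0.79, 0.71 and 0.61 TPM.

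Chil3 (ENSMUSG00000040809.10, chr3:106147554-106167564, minus strand) had 3.44, 1.86 and 2.00 TPM in replicates 1, 2 and 3, from 225, 196 and 219 expected counts. Replicate 1 was higher than the other libraries, with a Poisson interval of 3.01 to 3.92 TPM against 1.61 to 2.14 and 1.74 to 2.28 TPM. The near-identical gene Chil4, with 94.4% identity in coding sequence, was listed at 0 in all libraries, and 44.8% of the 31-base stretches of Chil3 also occur in Chil4 or 3 other genes at 0. The level of Chil3 is uncertain for that reason. The intervals that the authors deposited with the TPM, 3.14 to 9.85, 1.70 to 5.94 and 1.86 to 6.51, reach well above the values. They overlap between the libraries, whereas the Poisson interval of replicate 1, which covers counting error only, lies above the others. Of the 8 other genes of the chitinase-like list, Chid1 alone reached 1 TPM, with 7.15, 6.53 and 7.65 TPM. Chil1 had 0.21, 0.04 and 0.14 TPM.

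The order of the members by mean level held in part. Saa3 exceeded Lyz2 in 2 of 3 libraries, by 1.87-fold in replicate 1 and 2.01-fold in replicate 3, and was 0.844 times Lyz2 in replicate 2. Lyz2 over Wfdc17, Wfdc17 over Lcn2, Lcn2 over Chil3, Chil3 over Lyz1 and Slpi over Camp were in that order in 3 of 3 libraries, with ranges that did not overlap. The steps were 8.31-fold, 18.8-fold, 8.21-fold, 2.26-fold and 4.84-fold between means. Lyz1 over Hp held in 2 of 3 libraries, and Hp over Slpi held in 3 of 3 although their ranges overlap. The ranges thus overlap for the neighbours Saa3 and Lyz2, Lyz1 and Hp, and Hp and Slpi. Those of Lyz1 and Slpi do not overlap. Ptx3 stood last, at or under the limit of 3 counts in every library.

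Saa3 and Lcn2 had the widest spread between libraries of the members past 1 TPM. The ratio of the highest to the lowest library reached 2-fold for 2 of the 6 members with a mean of 1 TPM or more, Saa3 at 2.45 and Lcn2 at 3.25, against 7.24% of all 9983 genes past the same level. Only 73 of 9354 protein-coding genes (0.78%) had a larger ratio than Lcn2, and 182 (1.95%) had a larger one than Saa3. Chil3 (1.85) and Lyz1 (1.62) were exceeded by 6.61% and 12.5%, and Wfdc17 (1.37) by 31.7%. Lyz2 (1.11) was exceeded by 86.0%, and the median ratio was 1.26. After rescaling over protein-coding genes the call was made for 3 of 8 members (Saa3 at 2.37, Lcn2 at 2.72 and Hp at 2.38), against 10.6% of all genes.

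**Figure D2:**
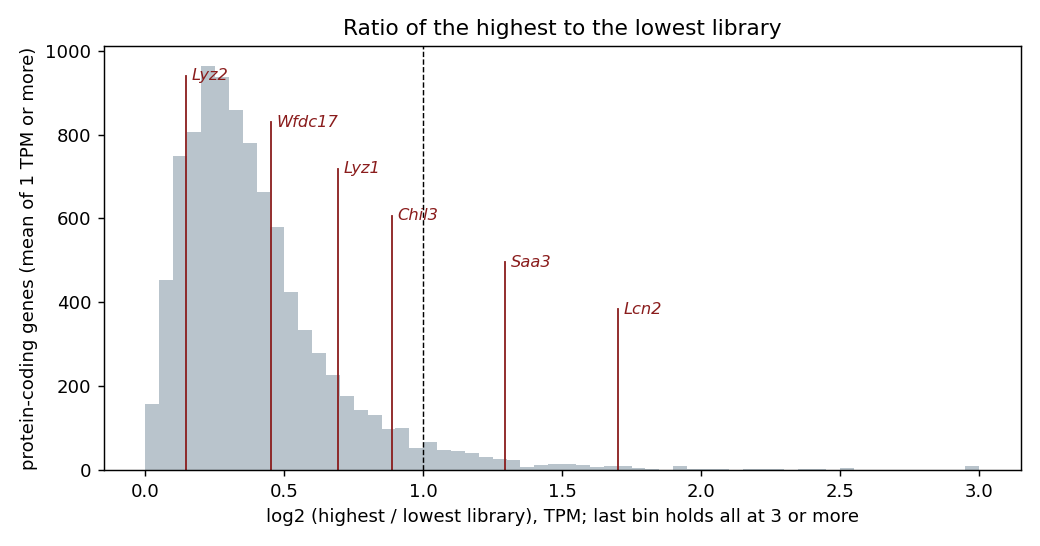
Distribution over 9354 protein-coding genes, with a mean of 1 TPM or more, of the log2 ratio of the highest to the lowest library, with the 6 members past this level drawn as red lines and the 2-fold mark dashed. Saa3 and Lcn2 lie to the right of the mark and Lyz2 lies left of the peak.

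These members did not vary in the same way. Saa3 and Hp were low in replicate 2 and nearly equal in the other libraries: the log2 ratio of replicate 3 to replicate 2 was 1.27 for both, and that of replicate 1 to replicate 3 was 0.03 for Saa3 and 0.17 for Hp. Lcn2 and Chil3 were high in replicate 1 and nearly equal in the others, with log2 ratios of replicate 1 to replicate 3 of 1.60 and 0.78 and of replicate 3 to replicate 2 of 0.10 for both. For Chil3 the deposited intervals overlap between the libraries, as given above. No pattern is read for Camp, which had 3 to 6 counts. Slpi resembled Saa3 (0.88 for replicate 3 to replicate 2 and 0.02 for replicate 1 to replicate 3), on few counts with overlapping intervals. Consequently the ratio of Saa3 to Lcn2 was 170 in replicate 1, 225 in replicate 2 and 505 in replicate 3, whereas that of Lyz2 to Wfdc17 stayed at 7.51, 8.35 and 9.38. On TPM as deposited, replicate 2 was the lowest library for 5 of 6 members, against 48.8% of all genes. Replicate 1 was the highest for 5 of 6, against 54.9%. These orders depend on the scale. On TPM rescaled over protein-coding genes, replicate 1 stayed highest for Lcn2, Chil3 and Wfdc17. For Saa3 it was then below replicate 3 (18990 against 21938), and for Lyz2 it was lowest (10153, against 10975 and 10937). Replicate 2 stayed lowest for Saa3, Lcn2, Lyz1 and Chil3.

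**Figure D3:**
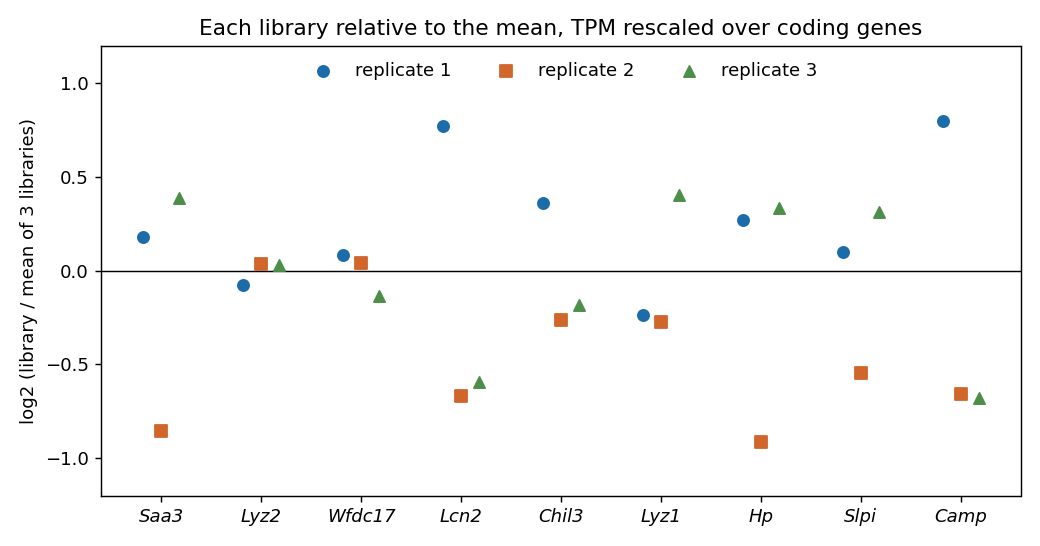
Log2 ratio of each library to the mean of the 3 libraries, on TPM rescaled over protein-coding genes, for the 9 members detected in all of them. Replicate 2 (squares) is lowest for Saa3, Hp and Slpi (the last on 20 to 38 counts), while replicate 1 (circles) stands alone above the others for Lcn2 and Chil3. The deposited intervals of Chil3, not drawn here, overlap between the libraries. Lyz2 and Wfdc17 stay near 0. The points of Camp rest on 3 to 6 counts, and no order is read for them.

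The nuclear-retained RNA Malat1 had 612.38, 156.12 and 637.41 TPM in replicates 1, 2 and 3. It was thus also lowest in replicate 2, as Saa3 and Hp were. So were 48.8% of all genes with a mean of 1 TPM or more. Neat1, another nuclear RNA, had 24.82, 12.66 and 52.42 TPM. Their part in the spread of Saa3 and Hp was not tested. Among 4069 protein-coding genes with a mean of 10 TPM or more, the genes nearest to Saa3 in pattern were Cp, Olfr56 and Il1rn, at distances of 0.18, 0.20 and 0.20 between centred log2 TPM over the 3 libraries. Il1rn, the antagonist of the interleukin-1 receptor, had 53.25, 26.42 and 57.8 TPM. The genes nearest to Lcn2 were Ccl12, Cebpb and Il1b, at distances of 0.07, 0.09 and 0.11. The chemokine gene Ccl12 had 170.11, 51.49 and 58.91 TPM, Cebpb had 47.53, 13.96 and 14.34 TPM, and Il1b had 24.48, 8.39 and 8.73 TPM. Within a distance of 0.2 lay 2 genes for Saa3 and 6 for Lcn2, against 1903 for Lyz2 and 966 for Wfdc17, whose flat patterns many genes share. Likeness over 3 libraries rests on very few points and describes these libraries.

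The 2 quantifications of the same reads gave nearly the same member levels after rescaling over protein-coding genes. None of the 8 members with a mean of 1 TPM or more in either differed 2-fold in every library, against 15.9% of 13893 genes. Of these 8, Lyz1 was furthest from 1 in every library, at 0.782, 0.598 and 0.712 times its first value. Saa3 stood at 0.972, 0.999 and 0.975, and Lyz2 at 0.921, 0.938 and 0.947.

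**Figure D4:**
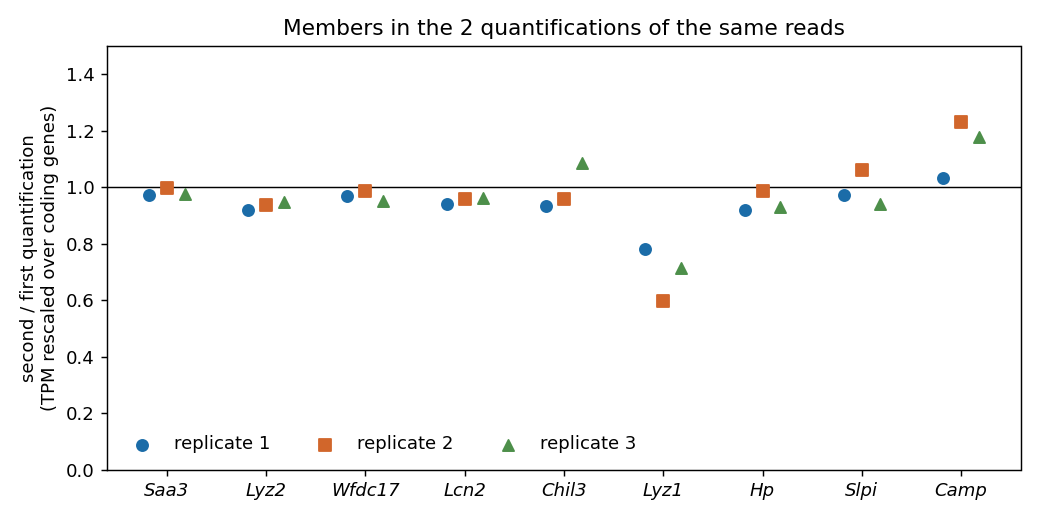
Ratio of the second to the first quantification for each of 9 members and each library, on TPM rescaled over protein-coding genes, with 1 as a line. Lyz1 lies below 0.8 in all 3 libraries, and the points of Camp, above 1, rest on 3 to 7 counts.

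The members were set beside genes that act with them. Of 18 receptors and binding partners, 12 reached 1 TPM throughout. A 2-fold range was seen for 2 of these 12, against 7.24% of all 9983 genes with a mean of 1 TPM or more. The median of the 18 was 18.9 ± 2.76 TPM (SD, n = 3). The complement subunits C1qb (1052.21, 949.97 and 866.04 TPM), C1qc (811.41, 752.07 and 699.26 TPM) and C1qa (229.43, 183 and 254.77 TPM), partners of Ptx3, were the highest. Fpr2, a formyl peptide receptor that binds serum amyloid A, had 26.56, 8.20 and 19.67 TPM. It was lowest in replicate 2, as Saa3 was, but so were 48.8% of all genes with a mean of 1 TPM or more. On the same list C1qa was also lowest in replicate 2, whereas C1qb and C1qc were lowest in replicate 3. For the ligands Lcn2 and Hp, the receptors on this list were near 0: Slc22a17, described as a receptor of Lcn2, had 0, 0.01 and 0.01 TPM, and Cd163, which takes up haptoglobin bound to haemoglobin, had 0.04, 0.07 and 0.07 TPM. Lrp2, another Lcn2 receptor, was the lowest, at 0 counts. Hmox1, which degrades the haem, had 105.19, 86.5 and 124.05 TPM.

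Of 15 transcriptional regulators, 14 reached 1 TPM throughout. Of these 14, 3 had a 2-fold range, against 7.24% of all genes with a mean of 1 TPM or more. The median of the 15 was 20.1 ± 1.34 TPM (SD, n = 3). Spi1 had 118.05, 95.33 and 87.8 TPM and Stat6 had 39.76, 35.65 and 32.36 TPM. Among the C/EBP factors, Cebpb stood high in replicate 1 as given above, Cebpd had 3.39, 2.03 and 1.71 TPM and Cebpa had 13.77, 21.88 and 26.42 TPM. Cebpe, the factor of late neutrophil maturation, had 0.06, 0.07 and 0.08 TPM. Of 18 other antimicrobial effectors, 7 reached 1 TPM throughout and 3 of the 18 had no count. Of the 7, 3 had a 2-fold range, against the same 7.24% of all genes. Mpeg1, a pore-forming protein of phagocytes, had 804.12, 662.76 and 803.98 TPM, Acod1, which makes itaconate, had 482.07, 181.85 and 197.91 TPM, and Irgm1, an interferon-induced GTPase, had 238.19, 165.34 and 189.17 TPM. Nos2, which makes nitric oxide, had 8.61, 1.85 and 1.48 TPM. Like Acod1 it was highest in replicate 1, as Lcn2 and Chil3 were. So were 54.9% of all genes with a mean of 1 TPM or more.

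Because Camp, Hp, Lcn2 and Chil3 are also neutrophil genes, markers of neutrophils were set beside them. Of 16 markers, 4 reached 1 TPM in every library (Csf3r, S100a9, S100a8 and Mmp8), and their summed TPM was 50.7, 40.9 and 53.6 in replicates 1, 2 and 3. Ly6g and Retnlg had no count, Elane and Mpo stayed at or below 0.05 TPM, and Ltf had 0.05, 0.57 and 0.44 TPM. Csf3r, which held most of this sum, had 39.98, 27.49 and 34.32 TPM. It was highest in replicate 1, as Lcn2 and Chil3 were, but so were 54.9% of all genes with a mean of 1 TPM or more. S100a9 (3.84, 5.56 and 9.97 TPM) and S100a8 (3.78, 3.90 and 5.34 TPM) were highest in replicate 3, and Mmp8 (2.20, 2.41 and 1.76 TPM) in replicate 2. The part of other cells in the levels of Camp, Hp, Lcn2 and Chil3 was not tested. In bulk RNA fewer cells of a type and less RNA per cell cannot be told apart. Of 8 hepatocyte markers none reached 1 TPM and 6 had no count, with Apoa2 highest, and none of 6 epithelial, 6 fibroblast, 6 dendritic cell and 7 mast cell and eosinophil markers reached 1 TPM.

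**Figure D5:**
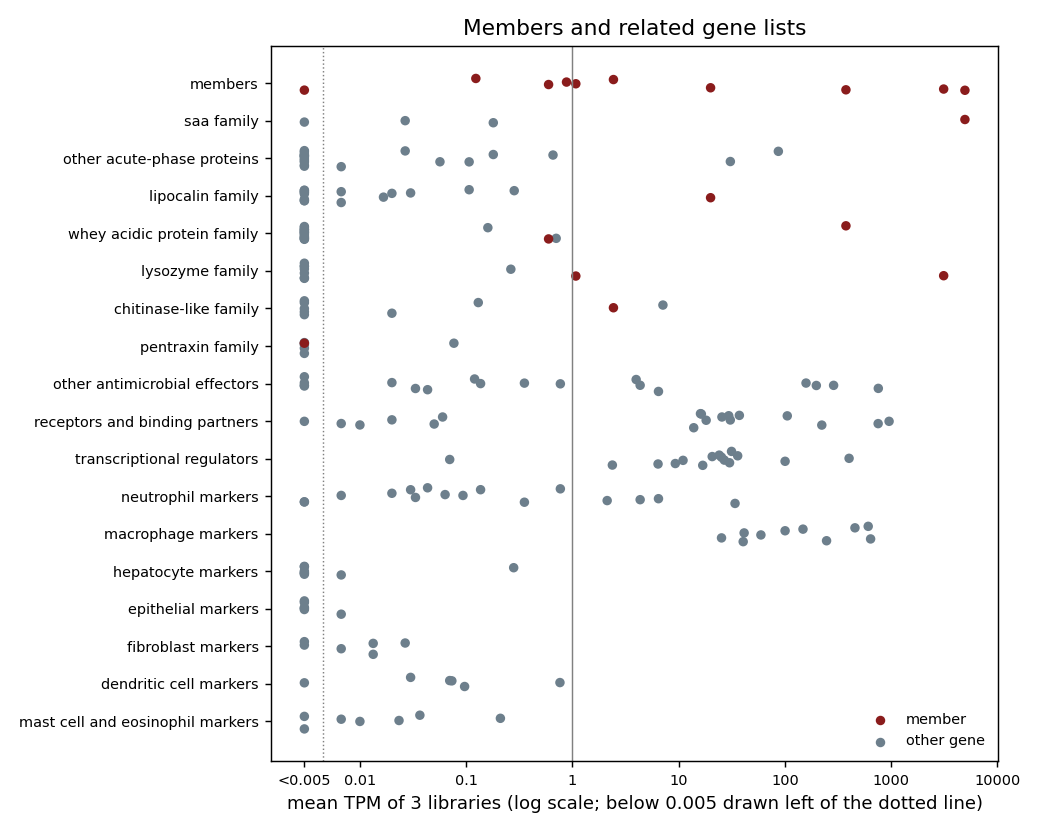
Mean TPM over 3 libraries (log scale) of the members (red) and of the other genes (grey) of each list, with 1 TPM as a grey line. Points left of the dotted line are below 0.005 TPM. Within the serum amyloid A, lipocalin, lysozyme and whey acidic protein lists the genes past 1 TPM are members, while the regulators and macrophage markers lie mostly above 1 TPM.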

How the data were processed

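The data are 3 libraries of total RNA of the cytosolic fraction, from 1 group. Per the text deposited beside them, the authors' gene and transcript tables use mm10 and GENCODE M21. Which programs made them, and with what strand setting, is not given in the sources used here, nor which version of them. The deposited gene tables give expected counts and TPM, the deposited transcript tables give the percent of a gene's abundance per transcript, and the second deposited transcript tables give estimated counts and TPM, summed here per gene. TPM includes short RNAs, which lowers the TPM of all other genes. Members and lists were chosen with earlier results of these data known. All members and, of the larger lists with genes past 1 TPM, the 3 highest were named by rule, except genes that are not reported here. Other genes with a role beside the members, and Malat1 and Neat1, were chosen after their values were seen. With 1 group no test between conditions exists, so counts stand beside the share of all genes. Expected counts were rounded for the TMM factors of edgeR 4.0.16 (R 4.3.3), used only as an alternative scaling, and the rest was done with pandas 2.3.3, scipy 1.17.1 and numpy 2.4.6 in Python 3.11.15. Intervals are 95% exact Poisson, and 0 counts allow up to 3. Steps were tested on simulated data.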

Additional observations from a re-analysis of the deposited data

How the results depend on the processing

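Members that reached 1 TPM throughout numbered 5. Their number was 8 at a threshold of 0.1 TPM, 8 after rescaling over protein-coding genes and 4 at a threshold of 10 TPM. It was 4 in the second quantification on its TPM as deposited, and 5 to 7 when a replicate was left out. The number with a 2-fold range was 2, and it was 4 at 1.5-fold, 4 with no filter on low values (Hp and Camp added) and 1 to 2 when a replicate was left out. Without replicate 1 Saa3 was the member left, and without replicate 2 it was Lcn2, since each range rests on 1 library. The rescaled TPM, TMM scaling, ratio of TPM + 1 and second quantification gave 2 or 3. The number differing between quantifications was 0, and it was 1, Lyz1, on TPM as deposited. Shares of all genes were computed only for the main settings and for the rescaled 2-fold range. The member counts at the other settings therefore have no background beside them, and no excess is read from them. The members' share of coding TPM was 2.88% and of expected counts 0.992%, where short transcripts weigh less. Member levels moved by more than the SD for 10 of 10 members with rescaling, by its construction. They also did for 7 of 10 in the second quantification, whose TPM as deposited was lower for every member. The mean of Saa3 was 2343.6 TPM there, against 4946.7 TPM. After rescaling over protein-coding genes it was 16364 against 16731, and that of Lyz1 was 2.59 against 3.71. The number of members that moved was 0 of 10 when a replicate was left out. Leaving out 1 of 3 libraries cannot move a mean by the SD, so nothing is read from that 0. Still, without replicate 1 the mean of Lcn2 was 11.7 TPM and that of Camp 0.07 TPM, over 1.5 times lower, and Ptx3 was 0 without replicate 3. Depth limits Camp, Slpi, Ptx3, Hp and Lyz1, whose counts were 0 to 118 per library. No paired analysis was possible because there is 1 group.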
